A study of Homo sapiens with 4 samples.

Results

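The genes described here build the machinery that copies DNA and supply its nucleotides: 41 genes for origin licensing, the replicative helicase's partners, the sliding clamp and its loader, the polymerases, fragment joining, single-strand binding, deoxynucleotide synthesis and entry into S phase. The rule that chose them names genes and sets no threshold on a measured value. All 41 had a probe whose RefSeq accession led to the gene, among 18203 genes with a named probe, and together they had 54 probes, 1 for each of 28 genes and 2 for each of 13. All 54 were well above background on all 4 arrays and none was saturated, so every difference below is a measured value and not a bound.

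The samples were 4 cultures of Nalm-6, a human pre-B cell leukaemia line, each with its RNA on 1 one-colour Agilent array. The genotypes were wild type (WT), Arp5 KO, Arp8 KO and a culture labelled Arp8 overexpression (Arp8 OE). Arp5 and Arp8 are actin-related proteins of the INO80 chromatin remodelling complex. Per the study's methods the Arp5 KO line had both alleles disrupted by gene targeting and is a single established line. The Arp8 KO line came from earlier work on the same cells. The study says that conditional Arp8 knockout was lethal to cells in its earlier work. It also reports that Arp5 KO cells were viable and grew slightly more slowly than wild type. How Arp8 was overexpressed is not given in the sources used here. Titles and protocol place every culture in 20 uM heme, an inducer of oxidative stress, for 12 hours, but other labels of both knockouts say no heme. A difference between a knockout and WT and a difference in heme treatment therefore cannot be told apart.

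With 1 array for each genotype no test between genotypes was possible, and no difference here was checked against a second culture. The error that could be measured was that between replicate spots of 1 probe within an array, which gave a technical SD of 0.08 for a log2 difference. Differences within 2 technical SDs (0.17) are treated as not separable from spot error. This SD is for a single spot. It is 1 median value applied at every signal level, and the spot error of dim probes was not estimated apart. For PCNA, PRIM1 and E2F1, printed 10 times and averaged, 0.17 is wider than 2 SDs of spot error. All 4 arrays lay on 1 slide and shared 1 scan. The 75th percentile of signal, on which each array was scaled, was 735.1 for WT and 739.6 for Arp5 KO, against 655.7 for Arp8 KO and 647.4 for Arp8 OE, so the arrays of the 2 Arp8 cultures were both dimmer than the other 2. The part of this signal gap in the results was not tested. The ACTR5 probe, for the gene of Arp5, differed from WT by -4.27 log2 units in Arp5 KO. Both ACTR8 probes were lower in Arp8 KO (differences of -0.53 and -0.68), and neither was higher on the array labelled Arp8 OE (0.02 and -0.01). All 10 B-lineage marker genes were well above background on every array, with a summed level of 318 to 402 in units of the 75th percentile, against 0.205 to 0.249 for 5 T and NK cell markers, of which CD3E alone, on the Arp8 KO array, was well above background. Of 7 myeloid and erythroid markers, 2 to 4 were, with summed levels of 0.378 to 0.437.

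Replication begins in G1, when the origin recognition complex (ORC1 to ORC6), CDC6 and CDT1 load the MCM helicase onto DNA, while geminin (GMNN) binds CDT1 and prevents loading again. In S phase CDC45 and the GINS complex join MCM to form the active helicase, primase and DNA polymerase alpha lay primers, and polymerases delta and epsilon extend them, held on DNA by the PCNA clamp that replication factor C loads. Many of these genes are transcribed at the G1/S boundary by E2F factors, which the retinoblastoma family restrains, and proliferating pre-B cells express them strongly. In bulk RNA, fewer cells in S phase and less RNA of a gene per cell cannot be told apart.

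The promoter windows shown belong to POLE2, RFC3 and GINS1 and, for contrast, to TYMS, which hardly differed in Arp8 KO. The first 3 had the lowest single probes against WT in Arp8 KO among genes with an entry in the RefSeq promoter table. RFC3 ranked so by 1 of its 2 probes (-1.20, beside -0.20 on the other). Each runs 5′ to 3′ on the gene's strand from 250 bases before the start to 50 bases after it, in assembly GRCh38.p14. Capitals mark E2F-type letters, matched on either strand. Every window shown holds them, while 15 of 36 member windows did. The POLE2 window lies at chr14:49688165-49688464 on the minus strand, RFC3 at chr13:33817899-33818198, GINS1 at chr20:25407423-25407722 and TYMS at chr18:657403-657702, the last 3 on the plus strand.
POLE2: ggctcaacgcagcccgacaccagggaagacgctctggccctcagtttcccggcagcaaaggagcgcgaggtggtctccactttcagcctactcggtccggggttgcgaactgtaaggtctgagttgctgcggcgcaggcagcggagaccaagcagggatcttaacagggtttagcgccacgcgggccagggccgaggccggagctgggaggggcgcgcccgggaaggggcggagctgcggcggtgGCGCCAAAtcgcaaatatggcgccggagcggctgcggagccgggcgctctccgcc
RFC3: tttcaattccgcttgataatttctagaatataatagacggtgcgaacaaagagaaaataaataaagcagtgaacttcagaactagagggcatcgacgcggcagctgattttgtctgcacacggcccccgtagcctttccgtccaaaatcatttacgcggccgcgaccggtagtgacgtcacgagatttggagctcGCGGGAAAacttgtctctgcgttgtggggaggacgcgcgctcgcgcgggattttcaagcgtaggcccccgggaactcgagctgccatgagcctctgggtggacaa
GINS1: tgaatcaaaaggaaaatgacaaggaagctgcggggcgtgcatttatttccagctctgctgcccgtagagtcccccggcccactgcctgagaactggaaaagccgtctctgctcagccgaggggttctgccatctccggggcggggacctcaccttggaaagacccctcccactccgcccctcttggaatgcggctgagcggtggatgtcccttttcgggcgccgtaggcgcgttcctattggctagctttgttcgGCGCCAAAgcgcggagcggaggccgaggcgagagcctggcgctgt
TYMS: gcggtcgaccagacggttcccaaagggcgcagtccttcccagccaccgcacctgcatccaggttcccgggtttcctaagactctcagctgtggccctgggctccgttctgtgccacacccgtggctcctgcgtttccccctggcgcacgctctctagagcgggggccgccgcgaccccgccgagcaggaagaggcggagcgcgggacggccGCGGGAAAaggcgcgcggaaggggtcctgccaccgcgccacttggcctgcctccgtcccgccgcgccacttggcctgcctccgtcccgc

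The E2F-type letters searched were TTTCCCGC, TTTCGCGC, TTTGCCGC and TTTGGCGC, on both strands, with overlapping matches counted. Promoter windows were found for 36 of the 41 genes, and GINS4, POLD3, RPA2, RPA3 and CCNE2 had no entry. Of the 36, 15 held a match (41.7%), against 908 of 27305 genes in the table (3.33%) and 4.44% of 15843 protein-coding genes. The 15 were ORC3, CDC6, CDT1, GINS1, GINS2, GINS3, PCNA, RFC3, POLA1, POLA2, POLE, POLE2, LIG1, TYMS and E2F1. In the 150 bases nearest the start end of the window, 13 of 36 still held one (36.1%, against 1.71% of all). E2F1, itself an E2F factor, had 2 matches, with first bases at -33 and -20 from its start, and in POLE2 the match began at -5. A CCAAT box (the letters CCAAT) stood in 19 of 36 windows (52.8%, against 35.7% of all). The CHR letters TTTGAA and TTCGAA, known from genes of later cell cycle phases, stood in 1 window, that of RRM1 (2.78%, against 16.6% of all). A match is a run of letters and not a measured binding site.

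Against WT, the replication genes lay close to their WT level in Arp5 KO and were lower, by modest amounts, on the arrays of Arp8 KO and Arp8 OE. In Arp5 KO the median log2 difference over the 54 probes was 0.02, with quartiles of -0.07 and 0.09, beside a median of 0.00 and quartiles of -0.16 and 0.16 over all 24285 probes compared. In Arp8 KO the median was -0.30, a level 81.2% of WT, with quartiles of -0.44 and -0.06, beside 0.03 and quartiles of -0.27 and 0.28 over 24578 probes. In Arp8 OE it was -0.19, a level 87.7% of WT, with quartiles of -0.28 and -0.06, beside 0.00 over 24177 probes. These 3 comparisons share the 1 WT array, so a deviation of that array would enter all of them.

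**Figure D1:**
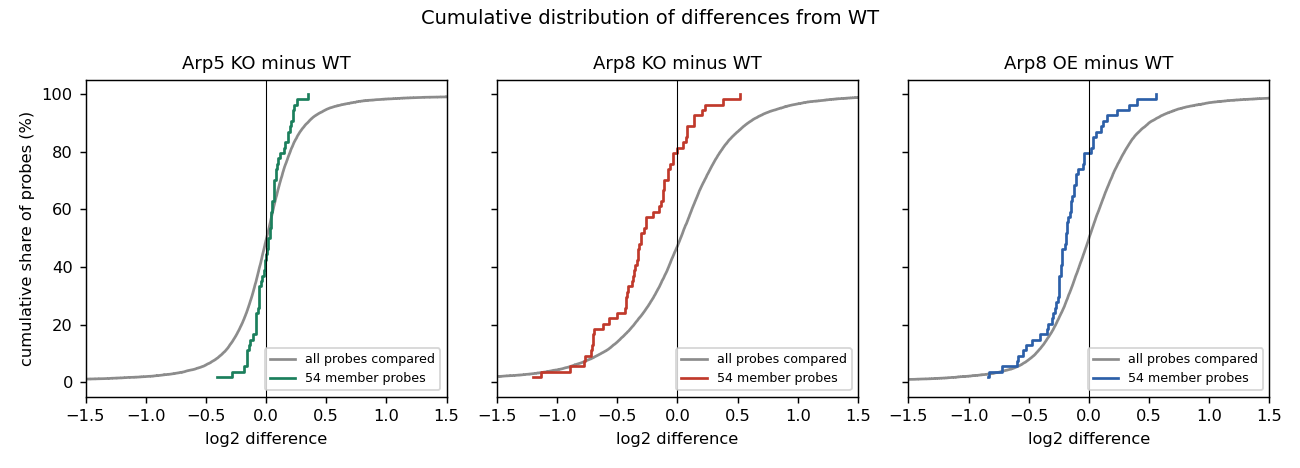
Cumulative share of probes (%, vertical axis) at or below each log2 difference from WT (horizontal axis), for the 54 member probes (coloured) and all probes compared (grey), in 3 panels, from left to right Arp5 KO, Arp8 KO and then Arp8 OE. The member curve lies to the left of the grey curve for most of its height in Arp8 KO and Arp8 OE and is steeper than it, around 0, in Arp5 KO.

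By counts, 44 of 54 member probes (81.5%) were below WT in Arp8 KO, where 47.3% of all probes were, and 43 of 54 (79.6%) in Arp8 OE, where 50% were. In Arp5 KO 23 of 54 (42.6%) were below WT, beside 49.3% of all. Past 1.5-fold, 11 member probes (20.4%) were lower in Arp8 KO, beside 11.2% of all probes, and none was higher, beside 10.0%. In Arp8 OE 5 were lower past 1.5-fold (9.26%, beside 5.67%) and none was higher (beside 7.93%). In Arp5 KO none passed 1.5-fold in either direction, beside 4.69% of all probes lower and 4.15% higher. Shares of all probes, here and below, also count dim probes that were well above background on only 1 of the 2 arrays. Every member was well above background on all 4. Of the 21783 probes for which this held, 9% were past 1.5-fold lower for Arp8 KO, 3.91% for Arp8 OE and 2.55% for Arp5 KO. Differences beyond spot error numbered 32 lower (32.0% of all probes) and 4 higher (35.3% of all) of the 54 member probes in Arp8 KO, and 31 lower (30.6% of all) and 4 higher (31.2% of all) in Arp8 OE. In Arp5 KO they numbered 3 lower and 9 higher, where 23.9% of all probes were beyond spot error in each direction.

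Few members reached 2-fold. Only 2 probes did so against WT, both lower in Arp8 KO (3.70% of 54, beside 4.35% of all probes lower and 3.37% higher), so the share past 2-fold was close to the background. None reached 2-fold in Arp5 KO (background 2.01% lower, 1.69% higher) or in Arp8 OE (2.15% lower, 2.96% higher). Among probes well above background on every array the shares past 2-fold lower were smaller. They were 2.77% for Arp8 KO, 0.973% for Arp8 OE and 0.716% for Arp5 KO. The plot of member differences by role shows how the small differences were distributed.

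**Figure D2:**
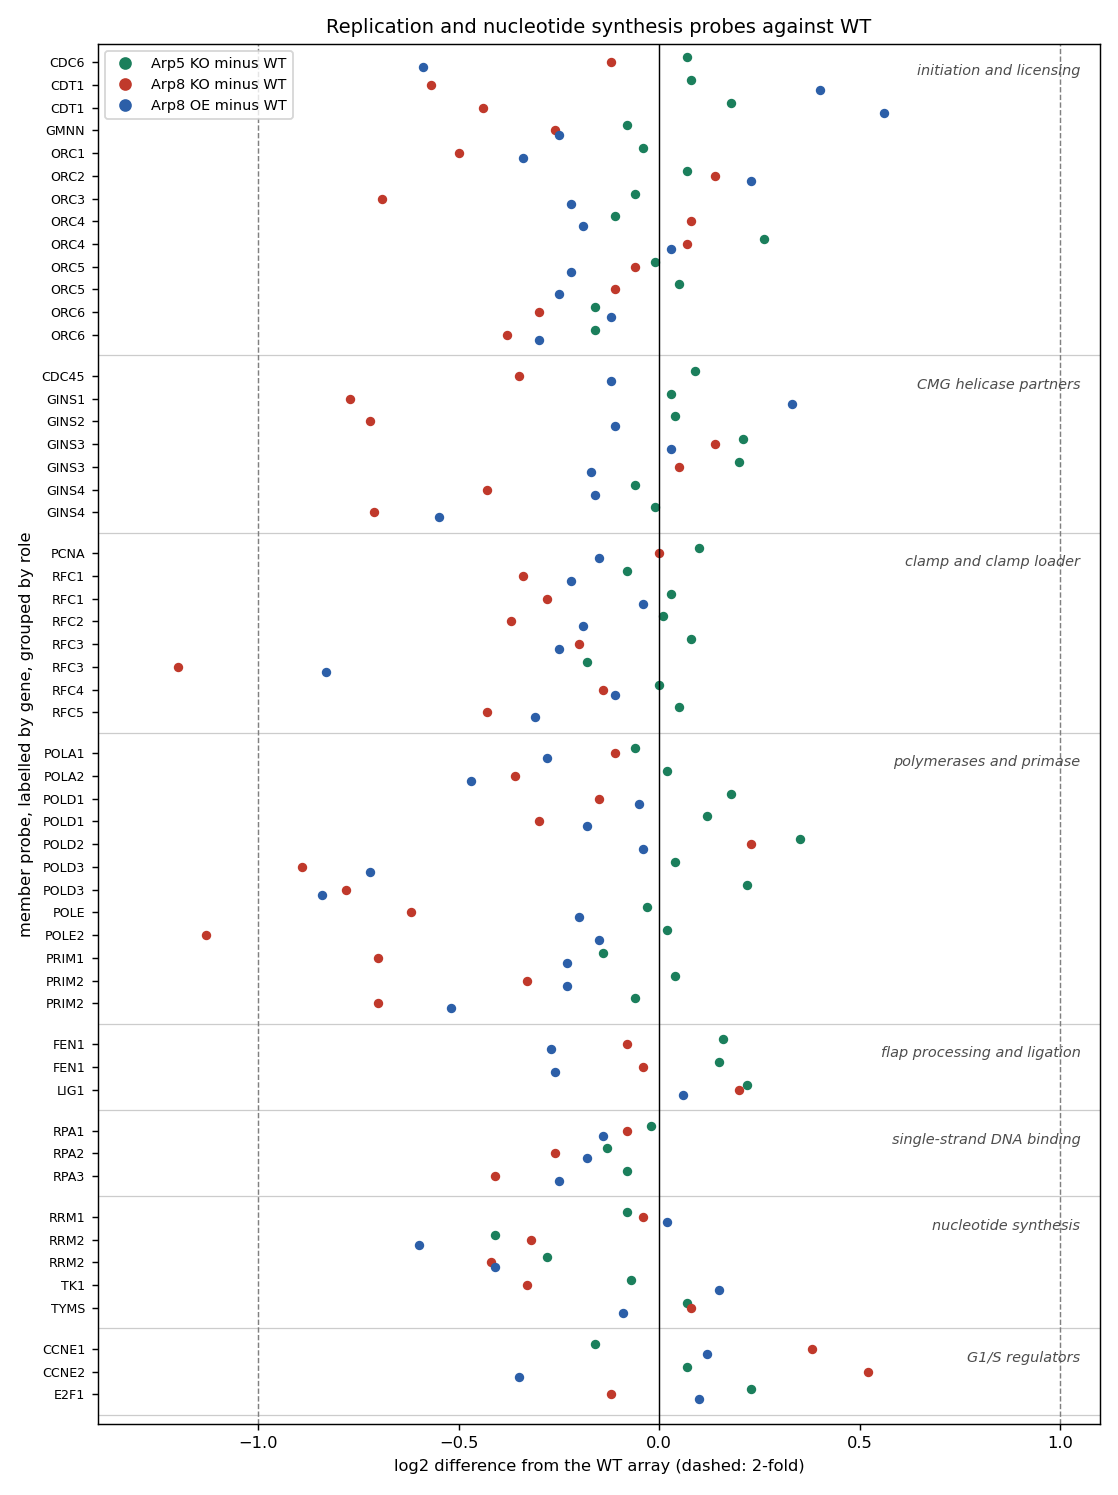
Log2 difference from the WT array (horizontal axis) of each of the 54 member probes (rows, labelled by gene and grouped by role), in Arp5 KO (green), Arp8 KO (red) and Arp8 OE (blue), 1 array each. Green points lie between -0.41 and 0.35, while red points reach -1.20 among the clamp loader and polymerase genes.

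The replicative polymerases and primase had the lowest group median in Arp8 KO. Their 12 probes, for 9 genes, had a median difference of -0.49 in Arp8 KO. There 11 of 12 were below WT (47.3% of all probes) and 6 were past 1.5-fold lower (11.2% of all). In Arp8 OE all 12 were below WT (50% of all) with a median of -0.23. In Arp5 KO the median was 0.03 with 8 of 12 above WT, where 49.3% of all probes were below. Compared directly with Arp5 KO, all 12 were lower in Arp8 KO (46.9% of all), with a median of -0.49.

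POLE2, the second subunit of DNA polymerase epsilon, was 1 of the 2 members past 2-fold. Its log2 level relative to the array's 75th percentile was 0.46 in WT, 0.48 in Arp5 KO cells, -0.67 in Arp8 KO cells and 0.31 in Arp8 OE. The Arp8 KO array thus stood alone below 3 arrays within 0.17 of each other. The difference from WT was -1.13 in Arp8 KO (45.6% of the WT level), 0.02 in Arp5 KO cells and -0.15 in Arp8 OE. POLE, the catalytic subunit of the same enzyme, was also lowest in Arp8 KO, with a smaller difference (-0.62, 65.2% of WT). It measured -0.26 in WT, -0.29 in Arp5 KO cells, -0.88 in Arp8 KO cells and -0.46 in Arp8 OE.

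POLD3, an accessory subunit of polymerase delta, was low on the arrays of both Arp8 cultures. Its probe A_32_P182439 measured 2.75 in WT, 2.98 in Arp5 KO cells, 1.97 in Arp8 KO cells and 1.92 in Arp8 OE. Its probe A_24_P75056 measured -1.35, -1.31, -2.23 and -2.06 in the same order. On both probes the 2 Arp8 arrays lay below the other 2 with a clear gap, and the differences from WT were -0.78 and -0.89 in Arp8 KO cells and -0.84 and -0.72 in Arp8 OE. Between Arp5 KO and Arp8 OE, the first of these probes differed by 1.06, the one member probe past 2-fold in that comparison.

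The other subunits of polymerase delta had smaller or different differences. POLD1, its catalytic subunit, differed from WT by -0.15 and -0.30 on its 2 probes in Arp8 KO, by -0.05 and -0.18 in Arp8 OE and by 0.18 and 0.12 in Arp5 KO. POLD2, another small subunit, was above WT in both knockouts, with levels of 1.88 in WT, 2.22 in Arp5 KO cells, 2.10 in Arp8 KO cells and 1.84 in Arp8 OE. Its difference of 0.35 in Arp5 KO was the highest of any member there. POLD4, the smallest subunit and outside the 41 genes, differed by -0.41 and -0.40 on its 2 probes in Arp8 KO and by -0.44 and -0.35 in Arp5 KO, but by 0.03 and 0.10 in Arp8 OE.

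Of the priming enzymes, PRIM1, the catalytic primase subunit, was printed in 10 spots per array. Its level was 2.25 in WT, 2.11 in Arp5 KO cells, 1.55 in Arp8 KO cells and 2.02 in Arp8 OE, with an SD between spots of 0.05 to 0.06. Its difference of -0.70 in Arp8 KO was therefore many times the spot error, and that of -0.23 in Arp8 OE also exceeded 2 technical SDs. PRIM2, the large primase subunit, was lower by -0.33 and -0.70 on its 2 probes in Arp8 KO and by -0.23 and -0.52 in Arp8 OE. POLA2, the B subunit of polymerase alpha, measured 2.43 in WT, 2.46 in Arp5 KO cells, 2.07 in Arp8 KO cells and 1.96 in Arp8 OE (-0.36 and -0.47 on the last 2 arrays), the smallest difference of these enzymes in Arp5 KO (0.02). POLA1, its catalytic subunit, measured 2.08, 2.02, 1.97 and 1.8, of which only the Arp8 OE level was beyond spot error (-0.28).

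**Figure D3:**
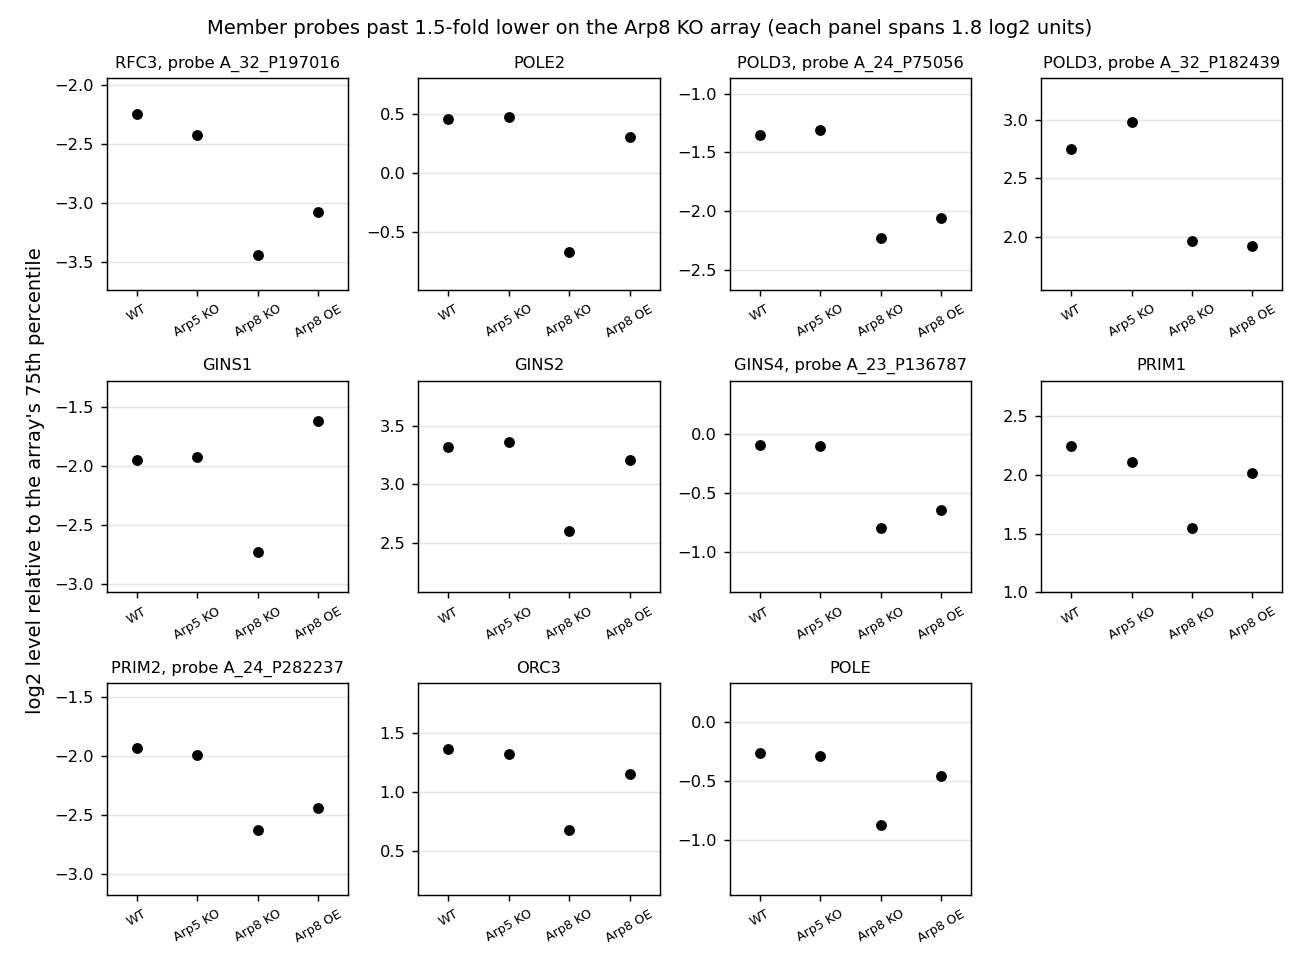
Log2 level relative to the array's 75th percentile (vertical axis, 1 panel per probe, each spanning the same width) on the arrays of WT, Arp5 KO, Arp8 KO and then Arp8 OE (horizontal axis) for the 11 member probes past 1.5-fold lower in Arp8 KO. Each point is 1 array without replicate. WT and Arp5 KO lie closer together than WT and Arp8 KO in every panel. Arp5 KO differs from WT beyond spot error for POLD3 probe A_32_P182439 (0.22) and for RFC3 (-0.18). Arp8 OE lies near WT and Arp5 KO for POLE2, GINS2, PRIM1, ORC3 and POLE, and near Arp8 KO for POLD3, GINS4 and PRIM2. For RFC3 it lies between Arp5 KO and Arp8 KO, and for GINS1 above all others.

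The clamp and clamp loader genes were below WT in both Arp8 cultures. In Arp8 KO the 8 probes of 6 genes had a median of -0.31 and in Arp8 OE of -0.20. All 8 were below WT in Arp8 KO (47.3% of all probes) and in Arp8 OE (50% of all), although PCNA's difference in Arp8 KO rounded to 0.00. In Arp5 KO the median was 0.02. PCNA, the sliding clamp, was printed in 10 spots. It measured 4.53 in WT, 4.64 in Arp5 KO cells, 4.53 in Arp8 KO cells and 4.39 in Arp8 OE. Its differences from WT in Arp5 KO (0.10) and Arp8 OE (-0.15) stayed within 2 technical SDs. That cutoff is set for single spots and is wide for this mean of 10. RFC1, RFC2, RFC4 and RFC5, subunits of the loader, ranged from -0.43 (RFC5) to -0.14 (RFC4) in Arp8 KO and from -0.31 (RFC5) to -0.04 (1 RFC1 probe) in Arp8 OE. RFC4 measured 3.99 in WT, 4.0 in Arp5 KO cells, 3.85 in Arp8 KO cells and 3.88 in Arp8 OE.

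RFC3, the remaining subunit of the loader, was the other member past 2-fold, but on 1 of its 2 probes. Probe A_32_P197016, designed on the NM_181558 transcript, measured -2.24 in WT, -2.42 in Arp5 KO cells, -3.44 in Arp8 KO cells and -3.08 in Arp8 OE, a difference of -1.20 in Arp8 KO (43.6% of WT). Probe A_23_P14193, on NM_002915, measured 0.40, 0.48, 0.20 and 0.15, a difference of -0.20. The gap of 0.99 between the 2 probes in Arp8 KO was the largest among the 13 genes with 2 probes, where the median gap was 0.10. The first probe is dim, and its Arp8 KO difference was -0.71 after normexp background correction. For all 13 genes the 2 probes had the same sign in Arp8 KO, for 11 in Arp8 OE and for 8 in Arp5 KO.

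CDC45 and the GINS subunits, which complete the active helicase, had a median of -0.43 in Arp8 KO over 7 probes of 5 genes, -0.12 in Arp8 OE and 0.04 in Arp5 KO. GINS1 measured -1.95 in WT, -1.92 in Arp5 KO cells, -2.73 in Arp8 KO cells and -1.62 in Arp8 OE. It was thus lowest in Arp8 KO (-0.77 from WT) and highest in Arp8 OE (0.33 from WT), and the 2 Arp8 arrays differed by -1.10, past 2-fold. After normexp background correction its differences from WT were -0.45 in Arp8 KO and 0.20 in Arp8 OE. This probe lay beside bright spots on the WT and Arp8 OE arrays, the part of which was not tested, and is 1 of 7 member probes with such a neighbour on some array. GINS2 measured 3.32 in WT, 3.36 in Arp5 KO cells, 2.60 in Arp8 KO cells and 3.21 in Arp8 OE, with Arp8 KO alone low (-0.72).

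The 4 GINS subunits act as 1 complex but did not move together here. GINS4 was at -0.43 and -0.71 on its 2 probes in Arp8 KO and at -0.16 and -0.55 in Arp8 OE, and its probe A_23_P136787 measured -0.09 in WT, -0.10 in Arp5 KO cells, -0.80 in Arp8 KO cells and -0.64 in Arp8 OE. GINS3 was not lower in Arp8 KO on either probe (0.14 and 0.05), and was above WT in Arp5 KO on both (0.21 and 0.20). Its probe A_24_P159323 measured -1.03, -0.83, -0.99 and -1.21 on the 4 arrays. CDC45 measured 4.91 in WT, 5.0 in Arp5 KO cells, 4.56 in Arp8 KO cells and 4.80 in Arp8 OE, a difference of -0.35 in Arp8 KO, and in Arp5 KO it differed from WT by 0.09.

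Among the initiation and licensing genes, 13 probes of 9 genes had medians of -0.26 in Arp8 KO, -0.22 in Arp8 OE and -0.01 in Arp5 KO. The ORC subunits were unequal. ORC3 measured 1.37 in WT, 1.32 in Arp5 KO cells, 0.68 in Arp8 KO cells and 1.15 in Arp8 OE (-0.69 in Arp8 KO), and ORC1, the subunit whose amount varies with the cell cycle, measured 1.07, 1.03, 0.57 and 0.72 (-0.50). ORC2 was above WT by 0.23 in Arp8 OE and within spot error in Arp8 KO (0.14), and ORC4 (0.08 and 0.07) and ORC5 (-0.06 and -0.11) were within spot error in Arp8 KO. ORC5 probe A_23_P31414, with the smallest difference of this group in Arp5 KO (-0.01), measured 1.43 in WT, 1.42 in Arp5 KO cells, 1.37 in Arp8 KO cells and 1.21 in Arp8 OE. ORC6 was at -0.30 and -0.38 in Arp8 KO cells and -0.16 on both probes in Arp5 KO.

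The licensing factors CDC6 and CDT1 took opposite courses on the Arp8 OE array. CDC6 measured 2.48 in WT, 2.55 in Arp5 KO cells, 2.36 in Arp8 KO cells and 1.89 in Arp8 OE, so that it was low in Arp8 OE (-0.59) and near WT in both knockouts (0.07 and -0.12). CDT1 on probe A_23_P37704 measured 5.27 in WT, 5.36 in Arp5 KO cells, 4.70 in Arp8 KO cells and 5.67 in Arp8 OE, and on probe A_24_P176374 3.02, 3.21, 2.58 and 3.59. On both CDT1 probes Arp8 KO was the lowest and Arp8 OE the highest array (-0.57 and -0.44 against 0.40 and 0.56). The 2 Arp8 arrays differed by -0.97 and -1.01 for CDT1, the latter, with GINS1, being the 2 member probes past 2-fold in that comparison. Probe A_24_P176374 lay beside a bright spot on the WT array and A_23_P37704 on none. GMNN, the inhibitor of CDT1, was at -0.26 in Arp8 KO cells and -0.25 in Arp8 OE.

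Of the genes that process and bind DNA behind the fork, FEN1 and LIG1 differed little in Arp8 KO. FEN1, which cuts the flaps of Okazaki fragments, was at -0.08 and -0.04 in Arp8 KO, lower at -0.27 and -0.26 in Arp8 OE, and within spot error in Arp5 KO (0.16 and 0.15). Its probe A_24_P84898 measured 2.94 in WT, 3.10 in Arp5 KO cells, 2.90 in Arp8 KO cells and 2.69 in Arp8 OE. LIG1, the ligase that joins the fragments, measured 3.72 in WT, 3.94 in Arp5 KO cells, 3.92 in Arp8 KO cells and 3.78 in Arp8 OE, above WT beyond spot error in both knockouts and by 0.06, within it, in Arp8 OE. Of the 3 subunits of RPA, which coats single-stranded DNA, RPA3 measured 4.11 in WT, 4.03 in Arp5 KO cells, 3.70 in Arp8 KO cells and 3.86 in Arp8 OE (-0.41 and -0.25 on the last 2 arrays), and RPA2 was at -0.26 and -0.18 on those 2. In Arp5 KO both were within spot error (-0.08 and -0.13). RPA1 measured 4.62, 4.59, 4.54 and 4.48, within spot error on every array.

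For nucleotide synthesis the subunits of ribonucleotide reductase, which makes deoxynucleotides, differed from each other. RRM2, the small subunit, was below WT on every array. Its probe A_24_P225616 measured 1.60 in WT, 1.19 in Arp5 KO cells, 1.28 in Arp8 KO cells and 1.0 in Arp8 OE (-0.60 from WT), and probe A_24_P234196 measured 2.37, 2.09, 1.95 and 1.96. Its differences in Arp5 KO, -0.41 and -0.28, were the lowest of any member in that culture. RRM1, the large subunit, measured 4.49, 4.41, 4.45 and 4.51 in that order, a span of 0.10 that was the smallest of all 54 probes.

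TYMS, thymidylate synthase, measured 5.30 in WT, 5.37 in Arp5 KO cells, 5.39 in Arp8 KO cells and 5.21 in Arp8 OE, with no difference from WT beyond spot error. TK1, thymidine kinase of the salvage path, measured 7.09, 7.01, 6.75 and 7.24, lower in Arp8 KO (-0.33) and near WT in Arp8 OE (0.15). The group of 5 probes had medians of -0.08, -0.32 and -0.09 in Arp5 KO cells, Arp8 KO and Arp8 OE.

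Of the 3 regulators of S phase entry, 2 were above WT in Arp8 KO, where 10 of the 54 member probes were. CCNE1 and CCNE2, the E-type cyclins that activate CDK2, were the 2 highest members in Arp8 KO. CCNE2 measured -2.31 in WT, -2.24 in Arp5 KO cells, -1.78 in Arp8 KO cells and -2.66 in Arp8 OE. Its difference was 0.52 in Arp8 KO cells and -0.35 in Arp8 OE. This probe is dim. Over the alternative processings with WT as reference it ran from 0.44 to 0.56 in Arp8 KO and from -0.39 to -0.18 in Arp8 OE. CCNE1 measured 2.63, 2.47, 3.01 and 2.75, highest in Arp8 KO (0.38). E2F1, printed in 10 spots, measured 2.39 in WT, 2.63 in Arp5 KO cells, 2.27 in Arp8 KO cells and 2.50 in Arp8 OE. Its difference exceeded 2 technical SDs in Arp5 KO (0.23) and not in Arp8 KO (-0.12) or Arp8 OE (0.10). That cutoff is set for single spots and is wide for a mean over replicate spots.

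Across the 4 arrays, 31 of the 54 member probes (57.4%) had their lowest level on Arp8 KO and 17 (31.5%) on Arp8 OE, with 4 on WT and 2 on Arp5 KO. Of 21783 probes well above background on every array, 28.7% were lowest on Arp8 KO and 27.3% on Arp8 OE. The highest level was on Arp5 KO for 25 (46.3%, beside 16.3% of all) and on WT for 19 (35.2%, beside 24.1%). The span from lowest to highest array had a median of 0.41 for members and 0.42 for all probes. It was less than 1.5-fold for 38 of 54 members, beside 15328 of the 21783 probes. The size of the members' variation was thus close to that of all probes.

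The 2 knockouts and the 2 Arp8 cultures were also compared directly. Arp8 KO lay below Arp5 KO on 47 of 54 probes, where 46.9% of all probes were lower, with a median of -0.26 and 3 probes past 2-fold lower (3.18% of all), namely those of POLE2 (-1.16), RFC3 (-1.02) and POLD3 (-1.01), 1 probe each. With normexp correction none of the 54 passed 2-fold there, and by gene means 1 of the 41 genes did. Arp5 KO lay below Arp8 OE on 8 of 54 (49.5% of all) and above it on 46, with a median of 0.17 and 1 POLD3 probe past 2-fold higher (2.08% of all), but no gene by gene means. Arp8 KO and Arp8 OE had the smallest difference of these pairs, with 33 of 54 lower in Arp8 KO (47.9% of all), 2 of them past 2-fold (3.78% of all), and a median of -0.08. Those 2 probes, of GINS1 and CDT1, lay beside bright spots on some array, so that 0 remained without such probes. For GINS1 these spots were on the WT and Arp8 OE arrays. For CDT1 the spot was on the WT array, which this pair does not use, and its other probe differed by -0.97. The count past 2-fold was 1 with normexp correction, with median scaling or by gene means and 3 with quantile or cyclic loess normalization. Single probes in this pair ran from -1.10 for GINS1 to 0.88 for CCNE2.

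The members with and without E2F-type letters in the promoter window were set side by side by the mean difference of each gene's probes. In Arp8 KO the 15 genes with a match had a median of -0.36 and ranged from -1.13 (POLE2) to 0.20 (LIG1), and the 21 without had a median of -0.26 and ranged from -0.70 to 0.38. In Arp8 OE the medians were -0.15 and -0.14, and in Arp5 KO 0.04 and -0.01. In Arp8 OE the genes with a match ranged from -0.59 to 0.48 and those without from -0.50 to 0.23, and in Arp5 KO from -0.06 to 0.23 and from -0.34 to 0.35.

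**Figure D4:**
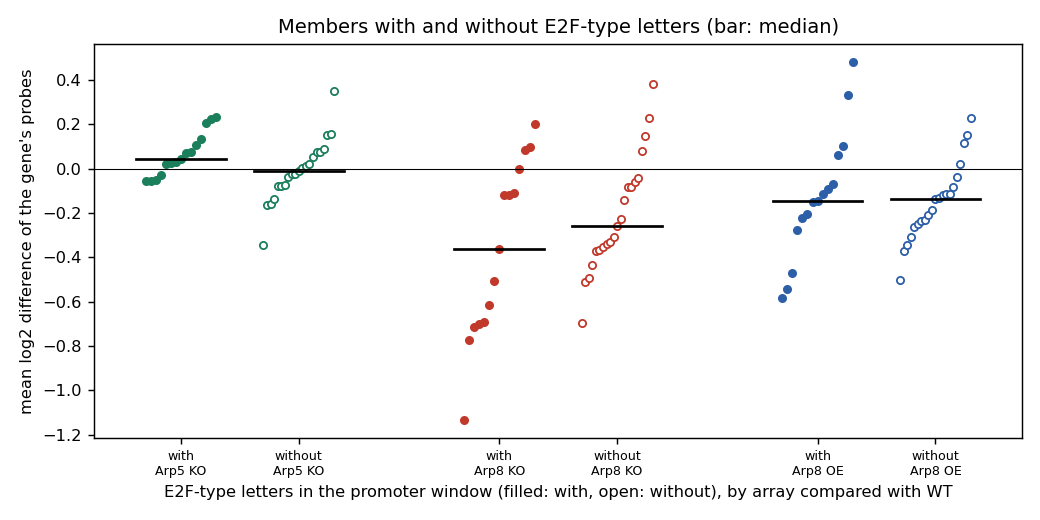
Mean log2 difference from WT of each gene's probes (vertical axis) for the 15 genes with E2F-type letters in the promoter window (filled points) and the 21 without (open points), for Arp5 KO, Arp8 KO and Arp8 OE (horizontal axis). Bars are medians over genes, and the points of the 2 classes overlap on each array.

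Other genes of the same processes, outside the 41, were read from fixed lists. The 8 probes of 7 MCM helicase genes had a median of -0.20 in Arp8 KO and all lay below WT, where 47.3% of all probes did. Those of MCM3 (-0.04), MCM4 (-0.15) and MCM7 (-0.16) and 1 of MCM10 (-0.05) were within spot error there. In Arp8 KO 2 were past 1.5-fold lower (11.2% of all probes), MCM2 and MCM5. MCM5 differed by -0.88 there, by -0.10 in Arp5 KO and by -0.20 in Arp8 OE. In Arp5 KO 4 of the 8 lay below WT (49.3% of all), with a median of -0.02. Of these, 2 were past 1.5-fold lower (4.69% of all probes), MCM2 and MCM4 (-0.93). MCM4 differed by -0.41 in Arp8 OE. Of 21 fork and checkpoint genes none had a probe past 2-fold on any array, with medians of 0.02, -0.22 and -0.18 in Arp5 KO cells, Arp8 KO and Arp8 OE. Of 9 genes of replication-coupled chromatin assembly 12 of 13 probes were below WT in Arp8 KO, with a median of -0.29. For nucleotide metabolism the Arp8 KO median was -0.05 over 38 probes of 23 of the 24 genes, and for G1/S control -0.02 over 41 probes of 25 of the 27 genes, the others not being well above background. Together 130 probes were compared in Arp8 KO, of which 5 were lower past 2-fold (4.35% of all probes) and 2 higher (3.37% of all). In Arp5 KO 129 were compared, of which 3 were lower (2.01% of all) and none higher (1.69% of all), and in Arp8 OE 128, of which 1 was lower (2.15% of all) and 1 higher (2.96% of all).

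The larger differences in these lists belonged to few genes. MCM2, a subunit of the helicase, measured 4.49 in WT, 2.87 in Arp5 KO cells, 3.0 in Arp8 KO cells and 4.59 in Arp8 OE, and the difference from WT was -1.63 in Arp5 KO cells, -1.49 in Arp8 KO cells and 0.09 in Arp8 OE. DHODH, of pyrimidine synthesis, measured 0.42, -0.82, -1.19 and 0.14, again low in both knockouts (-1.24 and -1.61). Neither order of arrays was that of the 41 genes, among which Arp5 KO stayed near WT.

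DTYMK, thymidylate kinase, was lower in Arp8 KO on both probes (-0.84 and -1.01) and less so in Arp5 KO (-0.57 and -0.58). ASF1A, a histone chaperone, was past 2-fold lower in Arp8 KO on 1 probe (-1.03) and near WT on the other (-0.11). The first probe was also lower in Arp5 KO (-0.53) and Arp8 OE (-0.59), where the other was at -0.02 and -0.06. RBL1, of the retinoblastoma family, was lower on 1 probe on all 3 arrays (-2.06, -2.31 and -2.13), but that probe lay beside a bright spot on the WT array, and its other probe differed by -0.12, -0.33 and -0.55. CDKN1A, the CDK inhibitor p21, was the gene past 2-fold higher in Arp8 KO. Its probe A_23_P59210 measured 2.19 in WT, 2.41 in Arp5 KO cells, 4.14 in Arp8 KO cells and 2.92 in Arp8 OE. The other measured -0.78, -0.79, 0.71 and -0.26. The differences from WT were 1.95 and 1.48 in Arp8 KO cells and 0.73 and 0.52 in Arp8 OE. Probe A_23_P59210 lay beside a bright spot on the Arp8 KO array, and the other probe on none. CDKN1C, the CDK inhibitor p57, named after its values were seen, was past 2-fold higher in Arp8 OE, with levels of 0.38 in WT, 1.17 in Arp5 KO cells, 0.95 in Arp8 KO cells and 1.85 in Arp8 OE (1.47 from WT).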

How the data were processed

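Cy3-labelled RNA of 4 Nalm-6 cultures was measured on 4 Agilent one-colour arrays, and groups followed the labelled genotype. The members and gene lists were chosen with earlier results of these data known. The deposited scanner files hold intensity, which the authors extracted (software per the file headers: Agilent Feature Extraction, version 10.10.1.1), background-subtracted but not normalized between arrays. The authors' deposited matrix held the same intensity times 1 factor per array (1.99 to 2.29) and served as an alternative.

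The processed signal was divided by the 75th percentile of its array and put on the log2 scale, with the percentile taken over 43376 non-control spots. Outlier spots (69 to 76 per array) were left out and replicate spots averaged. A probe counted as well above background when at least 50% of its spots were (55.8 to 57.4% of 41000 probes), and was compared where this held on 1 of both arrays. Dimmer values were raised to the lowest level well above background on their array. The technical SD came from 264 probes printed 10 times. Of the probes, 27210 (66.4%) had a gene symbol through RefSeq accessions (GRCh38.p14), while the file headers name hg19, so no probe coordinates are given.

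All 41 genes were accounted for. Levels on all 4 arrays were given for members past 2-fold against WT, those with the largest and smallest differences of each role, and PCNA, RRM2, TYMS, CDC6 and E2F1. Further genes were chosen after their values were seen. For genes with several starts (8 of 36 members) the first listed promoter was used. The calculation was tested on simulated data. Python 3.11.15, pandas 2.3.3, R 4.3.3 and limma 3.58.1 were used. The precision is limited by 1 array per genotype. Alternatives were median scaling, quantile and cyclic loess normalization, normexp correction (offset 50), the matrix, other filters, gene means and Arp8 OE as reference.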

Additional observations from a re-analysis of the deposited data

How the results depend on the processing

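No paired analysis was possible because each genotype had 1 array. Under median scaling, quantile or cyclic loess normalization, normexp correction, the deposited matrix, either filter, gene means or the exclusion of probes beside a bright spot, the median over the members lay between -0.00 and 0.05 in Arp5 KO, between -0.33 and -0.28 in Arp8 KO and between -0.22 and -0.18 in Arp8 OE. Measured against Arp8 OE instead of WT, the median was 0.17 for Arp5 KO, with 1 probe past 2-fold higher, and -0.08 for Arp8 KO. The 2 probes past 2-fold lower in Arp8 KO became 1 with normexp correction and 1 gene when the probes of a gene were averaged, POLE2 (-1.04 with normexp) and not RFC3. The count lower was 11 in Arp8 KO and 5 in Arp8 OE at 1.5-fold. With normexp correction the Arp8 KO count became 8, with GINS1 at -0.45, 1 PRIM2 probe at -0.45 and POLE at -0.56, and it was 8 genes by gene means. In Arp8 OE the count past 1.5-fold lower was 2 with normexp correction and 3 with quantile or cyclic loess normalization, and 2 genes by gene means. No difference past 2-fold turned its direction. Of the promoter letters, the CHR share fell from 2.78% to 0 in the shorter window, and E2F-type letters at any listed start stood in 16 of 36 members (44.4%, beside 3.99% of all genes), an alternative chosen after seeing the data.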
